A study of Mus musculus with 23 samples.

Results

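Mouse neural progenitor cells that carried mutant histone H3.3 K27M, had lost Trp53, held a hairpin against Atrx and overexpressed Pdgfra (K27M-APP, 2 libraries) were compared with cells that overexpressed Pdgfra alone (EV-PDGFRA, 3 libraries). These 5 libraries were picked by their labels from the 23 RNA sequencing libraries of the series. The variant files listed with K27M-APP 1 and 2 carry the names of K27M-APP tumours, so the titles, on which the grouping rests, could not be checked against them. In both groups, constructs were delivered into embryonic cortex of C57BL/6 mice by in utero electroporation with a piggyBac transposon, and GFP+ cells were collected 72 hours later, sorted and expanded. Trp53 was disrupted with CRISPR/Cas9. Both groups are termed preneoplastic in the labels, and both received Pdgfra, so the contrast covers the mutant histone, Trp53 loss and the Atrx hairpin as a bundle whose parts cannot be told apart in it. The labels do not give the sex of the embryos, the number of embryos behind a library, or whether libraries of a group came from separate animals. The p-values therefore measure the spread between libraries of a group, pooled over all preneoplastic groups in the fit. This spread may be technical. A vector with wild-type H3.3 in the presence of Pdgfra was not analysed here.

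Other preneoplastic groups were used as a reference for the same genes. EV ctl (2 libraries) received an empty vector, WT-AP (4 libraries) received wild-type H3.3 with Trp53 loss and the Atrx hairpin, and K27M-AP (4 libraries) received H3.3 K27M with Trp53 loss and the Atrx hairpin. None of these 3 groups received Pdgfra. No library of them enters the difference between K27M-APP and EV-PDGFRA, although all 15 preneoplastic libraries shared 1 estimate of the spread.

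The p53 protein, encoded by Trp53, is a transcription factor that switches on genes of cell cycle arrest, cell death, DNA repair and its own feedback control after stress. H3.3 is the histone variant placed on chromatin outside DNA replication, and Atrx is part of a chaperone complex that places it at repeats. The K27M form, found in midline gliomas of children, inhibits polycomb repressive complex 2, the enzyme that methylates lysine 27 of histone H3. Pdgfra is a receptor tyrosine kinase of oligodendrocyte precursors that drives their division, and its gain is frequent in the same tumours.

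The library totals were 58390900 and 51988699 counts in K27M-APP, and 43989080, 51505371 and 48984995 in EV-PDGFRA. The level of a gene in a library is its CPM, the count relative to the library total after TMM scaling (trimmed mean of M-values). Mitochondrial genes took 2.10% to 3.25% of the counts. Correlations of log2 CPM over genes were 0.99 between the K27M-APP libraries and 0.988 between EV-PDGFRA 1 and 2, but 0.968 and 0.964 between EV-PDGFRA 3 and those 2. EV-PDGFRA 3 thus stood apart from its group, and it also appeared in the later of the 2 deposited tables only. Across the groups the correlations were 0.937 to 0.967. These correlations run over genes, which are not independent replicates.

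Among genes of the p53 lists, several that were lower in K27M-APP carry a match to the p53 binding consensus close to an annotated RefSeq start. A match was sought by script in RefSeq promoter windows on GRCm38 (250 bases before to 50 bases after an annotated start, 300 bases in all), on both strands. A half-site is the p53 half-site consensus, 10 bases long, matched in full. A full site is 2 abutting half-sites, 20 bases, with at most 2 mismatches and the C and G of each half-site core kept, so the inner letters of a core may mismatch, and each full site can overlap a half-site match. Symbols matched a window for 12311 of the 20197 genes tested. The Cdkn1a and Ccng1 windows held a full site with 1 mismatch. They are shown because these 2 genes have the smallest adjusted p of the p53 lists, with the full site in capitals and the window cut before annotated exons of the same gene.
Cdkn1a, chr17:29090729-29090975, plus strand: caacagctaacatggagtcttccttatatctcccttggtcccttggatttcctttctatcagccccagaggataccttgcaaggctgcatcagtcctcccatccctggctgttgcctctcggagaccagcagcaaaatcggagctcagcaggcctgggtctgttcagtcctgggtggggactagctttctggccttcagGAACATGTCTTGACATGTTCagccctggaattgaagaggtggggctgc
Ccng1, chr11:40755312-40755536, minus strand: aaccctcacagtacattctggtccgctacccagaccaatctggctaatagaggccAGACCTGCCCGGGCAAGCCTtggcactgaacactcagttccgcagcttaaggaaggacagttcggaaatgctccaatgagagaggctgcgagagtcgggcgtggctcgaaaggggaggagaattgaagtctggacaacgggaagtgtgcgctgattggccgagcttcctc
The Cdkn1a site spans 29090928 to 29090947 on chromosome 17 and begins 51 bases before the RefSeq start of the window. The Ccng1 site spans 40755462 to 40755481 on chromosome 11 and begins 195 bases before its RefSeq start. Both RefSeq starts differ from the GENCODE starts. Half-sites of the other p53-list genes that were lower follow with 10 flanking bases on each side, the half-site in capitals, for comparison of their letters. Those of Aen, Ei24, Polk and Rchy1 lie inside the gene as annotated by GENCODE. The Polk half-site spans 96519409 to 96519418 on chromosome 13, whereas the GENCODE gene starts at 96542579 on the minus strand.
Aen, chr7:78895927-78895956, plus strand: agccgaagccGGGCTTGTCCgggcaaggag
Bax, chr7:45467080-45467109, minus strand: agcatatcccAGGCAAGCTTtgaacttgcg
Ei24, chr9:36797325-36797354, minus strand: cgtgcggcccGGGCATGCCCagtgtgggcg
Polk, chr13:96519399-96519428, minus strand: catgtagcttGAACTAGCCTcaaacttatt
Rchy1, chr5:91962627-91962656, minus strand: cactatgacaGAGCTTGTCTcctcaaggtg
Trp53, chr11:69580274-69580303, plus strand: acccacggaaGGACTTGCCCttacttgtta
A half-site was present for 8 of the 17 lower p53-list genes with a window (47.1%). The share was 22.6% for the 31 p53-list genes that were not called, 11.1% for the 144 other lower genes, 13% for the 115 higher genes and 8.3% for all 12311. A full site was present for 2 of the 17 (11.8%), for 2 of the 31 that were not called (6.45%) and for 53 of all genes (0.431%). These are matches of letters and not evidence of binding.

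The delivered and targeted genes were examined first. Trp53, the gene disrupted by CRISPR/Cas9, stood at 18.7 and 18.6 CPM in K27M-APP and at 42.1, 44.6 and 40.9 CPM in EV-PDGFRA. The groups did not overlap, and Trp53 RNA fell (log2 fold change -1.19, SE 0.25, adjusted p = 0.0315 by edgeR's quasi-likelihood test with Benjamini-Hochberg adjustment, used for every adjusted p below). A frameshift need not remove the transcript, so this level does not measure the protein. Atrx, the chromatin remodeller targeted by the hairpin, stood at 78.5 and 88.6 CPM in K27M-APP and at 284, 302.8 and 232 CPM in EV-PDGFRA. Its log2 fold change was -1.71, with an SE of 0.33 and an adjusted p of 0.0238. In K27M-AP, which carried the same hairpin, Atrx was lower than in EV ctl by a log2 difference of -0.71 (SE 0.29) that was not called. Atrx lies on the X chromosome, and the groups differed in Xist (below). Trp53 lost its call whichever of the 5 libraries was left out (adjusted p 0.0791 to 0.286). Atrx kept its call without EV-PDGFRA 3 and lost it without any other library (0.0612 to 0.265).

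The receptor delivered to both groups did not separate them. Pdgfra stood at 794 and 865 CPM in K27M-APP and at 845, 1301 and 408 CPM in EV-PDGFRA, so the groups overlapped (log2 fold change -0.04, SE 0.50, adjusted p = 0.984). The lowest and the highest of the 5 values were both EV-PDGFRA libraries. In EV ctl, without delivered Pdgfra, the level was 48.5 and 33.1 CPM. It was higher in the other groups without delivered Pdgfra, at 152 to 311 CPM in K27M-AP and 78.7 to 256 CPM in WT-AP. The log2 fold change of K27M-AP minus EV ctl was 2.40 (SE 0.54), not called (adjusted p = 0.063). Where cells are said below to be without Pdgfra, this means without delivered Pdgfra. H3f3a, an H3.3 gene, stood at 276 and 244 CPM against 239.8, 233 and 206 CPM (log2 fold change 0.20, adjusted p = 0.717). H3f3b, the other H3.3 gene, had a log2 fold change of -0.08 (adjusted p = 0.853). The labels do not say which H3.3 sequence was delivered, whether its reads would be counted to either gene, or how reads shared with near-identical copies were handled.

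Across 20197 genes tested, 392 were called at an adjusted p below 0.05 (1.94%), 183 higher in K27M-APP (0.906%) and 209 lower (1.03%). Of them 345 differed by at least 2-fold. The groups did not overlap for any of the 392 called genes, and they did not overlap for 49.7% of all genes tested. The median log2 fold change of all genes was -0.01. Many of the rises were from near silence: 59 higher genes were under 1 CPM in every EV-PDGFRA library and at or above 1 CPM in both K27M-APP libraries. The reverse held for 28 lower genes. The number called depended on each library. It was 92, 162 and 131 without EV-PDGFRA 1, 2 and 3, and 44 and 45 without K27M-APP 1 and 2, where the lone K27M-APP library is assumed to vary like the other groups. All 392 genes kept their sign in each of these 5 fits. With only the libraries of the earlier table, which leaves out EV-PDGFRA 3, 653 genes were called. Of the 392 genes, 391 could be tested in that fit. All 391 kept their sign, but only 281 kept their call.

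**Figure D1:**
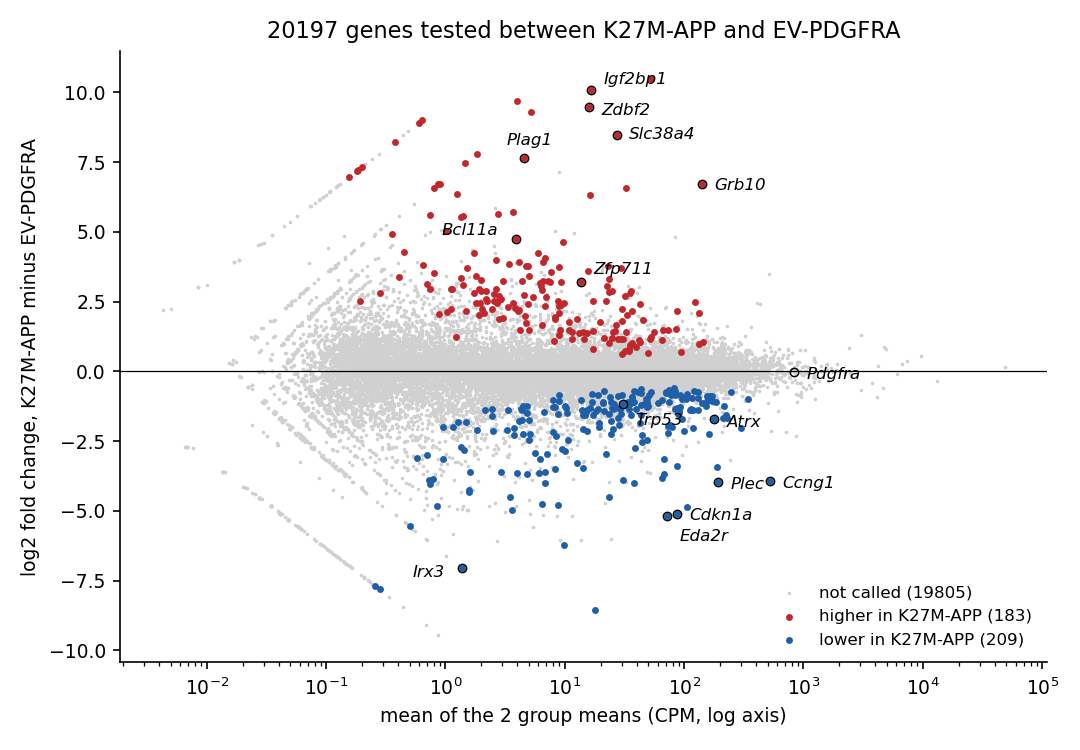
Log2 fold change (K27M-APP minus EV-PDGFRA, vertical axis) against the mean of both group means in CPM (horizontal log axis), 1 point per gene of the 20197 tested. The 183 called higher genes are red and the 209 called lower genes are blue, and grey points were not called. Red points lie above 0 and blue points below it over the whole range of levels.

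Genes activated by p53 were lower in K27M-APP, with at least 1 called fall in each of the 5 lists examined. Of the 62 genes in 5 p53 lists, all of which were tested, 19 fell (30.6%, beside 1.03% of all genes) and none rose. The log2 fold change was negative for 49 of the 62, compared with 51.1% of all genes tested, and its median was -0.87. Of the 19 called genes, 13 fell by at least 4-fold. Leaving out a library kept 13, 15 and 14 of the 19 calls (without EV-PDGFRA 1, 2 and 3) and 5 and 4 (without K27M-APP 1 and 2), with all 19 negative each time. Bax, Ccng1, Cdkn1a and Ei24 kept their calls in all 5 fits. The lost calls had adjusted p from 0.0556 to 0.346.

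Feedback genes and regulators came first by role, with 5 of 10 lower and a median log2 fold change of -0.99. Ccng1, which encodes cyclin G1 and is a classic p53 target, stood at 68.6 and 58 CPM in K27M-APP and at 1033, 760.5 and 1136 CPM in EV-PDGFRA. Its log2 fold change was -3.95 (SE 0.35, adjusted p = 0.000301). The lowest EV-PDGFRA library was more than 10 times the higher K27M-APP library. Zmat3, an RNA-binding protein induced by p53, stood at 11.4 and 18.9 CPM against 53.8, 61.2 and 108 CPM (log2 fold change -2.29, adjusted p = 0.00993). Trp53cor1, the long non-coding RNA lincRNA-p21, stood at 0.902 and 0.677 CPM against 14.8, 11.7 and 12 CPM (log2 fold change -4.02, adjusted p = 0.0114). Rchy1, a ubiquitin ligase for p53, had a smaller fall (log2 fold change -0.79, adjusted p = 0.0312), and Trp53 itself completes the 5. The main inhibitor of p53 did not pass the test: Mdm2 stood at 73.1 and 58.3 CPM against 106, 86.9 and 123 CPM, without overlap (log2 fold change -0.68, adjusted p = 0.16). Trp53inp1, which promotes p53-dependent death, differed by -1.96 with adjusted p = 0.171. Its SE was 0.68, against 0.35 for Ccng1. Trp53inp1 stood at 95.7 and 81.85 CPM against 338, 319 and 380 CPM, without overlap. It ranged from 65.4 to 334 CPM in K27M-AP and from 44.8 to 167.5 CPM in WT-AP, groups that share the estimate of the spread. Log2 fold changes of the remaining members were 0.37 for Mdm4, -0.08 for Ppm1d and -0.63 for Pvt1, none called. Without EV-PDGFRA 1, 2 and 3 the list kept 3, 4 and 3 of its 5 calls, and without K27M-APP 1 or 2 only Ccng1 remained called.

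The growth arrest list had 1 called gene among 11, and its median log2 fold change was -0.33. Cdkn1a, the cyclin-dependent kinase inhibitor p21, stood at 5.29 and 4.46 CPM in K27M-APP and at 164, 140 and 206 CPM in EV-PDGFRA. It fell 34.8-fold (log2 fold change -5.12, SE 0.53, adjusted p = 0.000838) and kept the call whichever library was left out. The other 10 members were not called, and 6 of the 11 had a negative log2 fold change. Ptprv, a p53-induced phosphatase, stood at 0.204 and 0.12 CPM against 0.734, 1.29 and 1.24 CPM, without overlap (log2 fold change -2.72, adjusted p = 0.203). Gadd45g and Gtse1 were also lower without overlap, at -0.98 and -0.88 (adjusted p of 0.408 and 0.671). Some members were level or higher. Gadd45a, a stress-induced arrest gene, stood at 7.95 and 7.37 CPM against 7.52, 6.21 and 7.16 CPM. Btg2, an antiproliferative gene, ranged from 75 to 166 CPM in K27M-APP, which enclosed the EV-PDGFRA range of 90.8 to 145 CPM. Plk2, a p53-induced kinase, was at 305 and 297 CPM against 189, 138 and 167 CPM, so both K27M-APP libraries lay above EV-PDGFRA, without a call (difference 0.87 on the log2 scale, adjusted p = 0.705). Trp53cor1 and Cdkn1a are neighbours on chromosome 17, with starts 11797 bases apart.

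In the cell death list 6 of 15 genes fell, and the median log2 fold change was -1.70. The receptors among them come first. Eda2r, a receptor of the tumour necrosis factor family, stood at 4.66 and 3.01 CPM against 145, 129 and 147 CPM (log2 fold change -5.19, SE 1.11, adjusted p = 0.0339). Fas, a death receptor, stood at 0.545 and 0.359 CPM against 14.8, 9.52 and 12.8 CPM (log2 fold change -4.76, adjusted p = 0.00343). Lrdd, the symbol in the files for Pidd1, a death-domain adaptor, stood at 5.97 and 5 CPM against 22.8, 20.8 and 24.9 CPM (log2 fold change -2.06, adjusted p = 0.0312). Bax, Ei24 and Aen complete the 6. Bax, which permeabilizes the mitochondrial membrane, stood at 46.4 and 44.2 CPM against 156, 148 and 136 CPM (log2 fold change -1.70, SE 0.19, adjusted p = 0.00158). Ei24, a membrane protein induced by p53, had a log2 fold change of -1.12 (adjusted p = 0.00197), and Aen, an apoptotic nuclease, of -2.01 (adjusted p = 0.039). Bax and Ei24 kept their calls whichever library was left out. Fas kept its call without each EV-PDGFRA library and lost it without either K27M-APP library, while Aen, Eda2r and Lrdd lost theirs in all 5 fits.

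Other death genes were lower in level but not called. Bbc3, which encodes PUMA, an activator of Bax, stood at 4.66 and 3.03 CPM against 18.8, 22.3 and 15.6 CPM (log2 fold change -2.29, adjusted p = 0.0935). Tnfrsf10b, the death receptor for TRAIL, stood at 3.34 and 2.55 CPM against 18.6, 13.3 and 21.5 CPM (adjusted p = 0.0884). Neither pair of groups overlapped. Apaf1, the core of the apoptosome, just missed the threshold with a log2 fold change of -0.84 (adjusted p = 0.0507). Pmaip1 (NOXA) and Perp had log2 fold changes of -1.09 and -2.27, with adjusted p of 0.38 and 0.171. The exception in sign was Trp53i11, at 267 and 286 CPM against 111, 107 and 147 CPM (log2 fold change 1.18, adjusted p = 0.376).

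DNA repair and metabolic targets followed the same pattern in part. Among 7 repair genes Mgmt, which removes alkyl groups from guanine, fell (1.43 and 1.18 CPM against 11.6, 8.59 and 9.69 CPM, log2 fold change -2.93, adjusted p = 0.0196). Polk, a translesion polymerase, fell by 2.00 on the log2 scale (adjusted p = 0.00239). Of 19 metabolic and stress genes 5 fell. Ak1, adenylate kinase, stood at 7.76 and 6.16 CPM against 239.2, 182 and 186 CPM (log2 fold change -4.86, adjusted p = 0.00282). Phlda3, an inhibitor of Akt signalling, stood at 9.97 and 9.54 CPM against 124, 113 and 139 CPM (log2 fold change -3.68, adjusted p = 0.0117). These 2 were separated by more than 10-fold between the nearest libraries. The remaining 3 were 9030617O03Rik, the symbol in the files for Dglucy (log2 fold change -4.01), Cpt1c, a brain carnitine palmitoyltransferase (-2.46), and Sesn2, a stress sensor upstream of mTORC1 (-1.94), with adjusted p of 0.00688, 0.011 and 0.0036. All 5 metabolic calls stood without each EV-PDGFRA library and none did without either K27M-APP library, as the adjusted p then rose to between 0.0556 and 0.187. Mgmt lost its call without EV-PDGFRA 1 and without either K27M-APP library, and Polk lost it only without K27M-APP 2 (adjusted p = 0.0572).

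**Figure D2:**
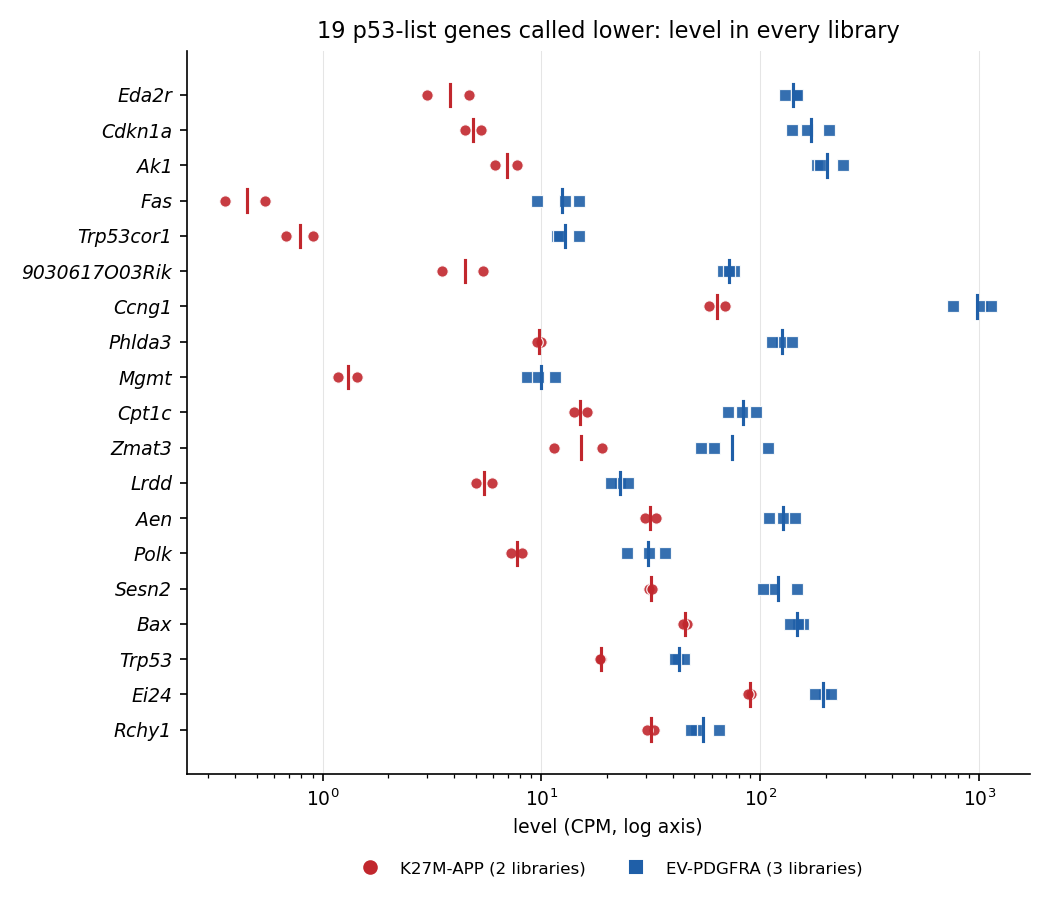
CPM (horizontal log axis) of the 19 p53-list genes called lower, with 1 dot per library and a vertical bar at each group mean, for K27M-APP (2 libraries) and EV-PDGFRA (3 libraries). In every row the dots of the groups are separated, with the widest gaps for Cdkn1a, Eda2r and Ak1 and the narrowest for Rchy1, Ei24 and Trp53.

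The same genes were read in cells without delivered Pdgfra, where no library is shared with the comparison above. Between K27M-AP and EV ctl 159 genes were called (0.787%), 71 higher (0.352%) and 88 lower. Of the 62 p53-list genes 19 were lower there (0.436% of all genes were), 18 of them among the 19 lower in K27M-APP, and the median over the 62 was -0.79 (-0.87 with Pdgfra). Cdkn1a was at 142 and 206 CPM in EV ctl, at 1.85 to 3.87 CPM in K27M-AP (median 2.80) and at 1.22 to 4.21 CPM in WT-AP (median 1.93). Ccng1 was at 522 and 876 CPM in EV ctl, at 46 to 78.5 CPM in K27M-AP (median 59.6) and at 49.3 to 70.2 CPM in WT-AP (median 58.6). Both genes were thus high in all 5 libraries with neither Trp53 loss nor the Atrx hairpin. They were low in all 10 libraries with both changes, with or without the mutant histone and with or without delivered Pdgfra. Trp53 loss, the hairpin and a delivered H3.3, wild-type or K27M, always came together, so their parts cannot be told apart here. The K27M-AP and WT-AP ranges overlapped for both genes.

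Over all 392 genes called with Pdgfra, 384 had the same sign without it (98%, compared with 72% of all genes tested). The 2 sets of calls shared 106 genes, all in the same direction, which is 27% of the 392 and 66.7% of the 159. For the 183 higher genes the median log2 fold change was 2.54 with Pdgfra and 1.66 without. For the 209 lower genes it was -1.53 and -0.90. Because the higher and lower genes were selected on the first of each pair of values, the smaller second value is a description. The difference between both contrasts was tested for each gene in the same fit. No gene was called by edgeR (494 had an unadjusted p below 0.05), DESeq2 called 6 and limma voom none, and edgeR called 4 without EV ctl 4. The number called without Pdgfra itself was unstable: 657 without EV ctl 4, 36 without EV ctl 5, 88 without K27M-AP 1 and 258 without K27M-AP 4.

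**Figure D3:**
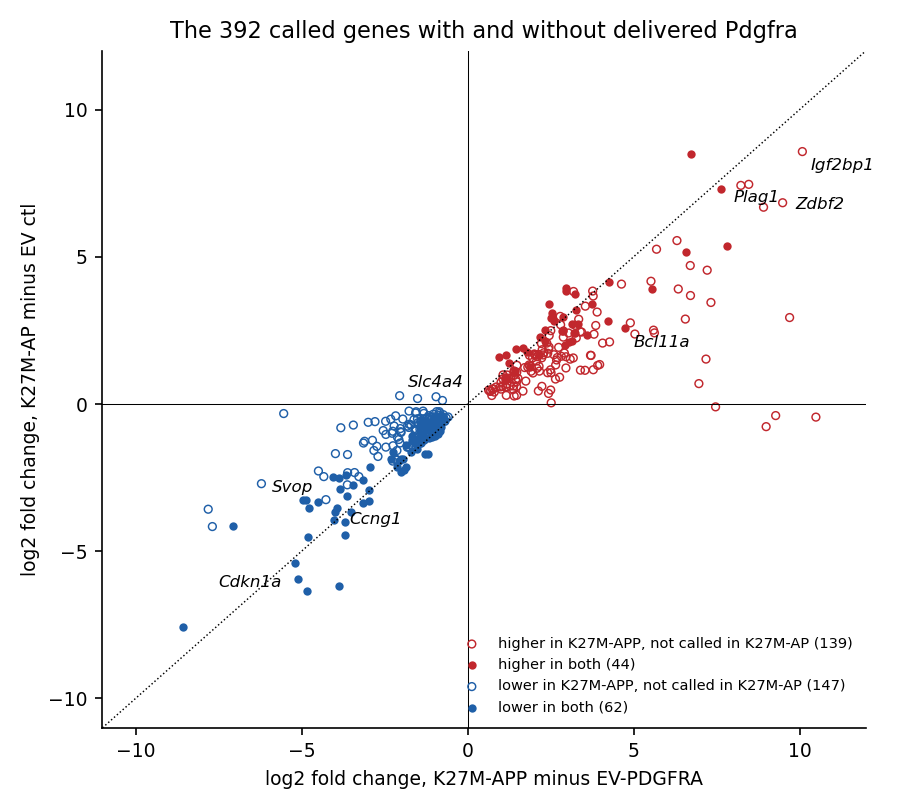
Log2 fold change of the 392 called genes with Pdgfra (K27M-APP minus EV-PDGFRA, horizontal axis) and without it (K27M-AP minus EV ctl, vertical axis), 1 point per gene. Filled points were called in both (44 higher, 62 lower) and open points in the first only (139 higher, 147 lower). Nearly all points lie in the 2 quadrants of equal sign.

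The steps of the bundle could be separated in part in the cells without Pdgfra. Medians of the 183 higher genes were 1.03 for WT-AP minus EV ctl and 0.48 for K27M-AP minus WT-AP. For the 209 lower genes they were -0.72 and -0.21. Both contrasts use the same WT-AP libraries, so these values are set side by side only. Between K27M-AP and WT-AP, where the histone is the labelled difference, 6 genes were called (0.0297%), all higher. All 6 also rose in K27M-APP against EV-PDGFRA, in libraries that the first comparison did not use (0.906% of all genes rose).

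Zfp711, an X-linked zinc finger protein that recruits the demethylase Phf8, stood at 23.5 and 26 CPM in K27M-APP and at 2.11, 2.56 and 3.38 CPM in EV-PDGFRA. It had the smallest adjusted p of all genes (log2 fold change 3.20, SE 0.24, adjusted p = 0.000107). Its range was 25.9 to 30.6 CPM in K27M-AP (median 28.7) and 8.94 to 14.5 CPM in WT-AP (median 11.4), so WT-AP lay between. Plag1, a zinc finger oncogene that activates fetal growth genes, stood at 8.20 and 9.76 CPM in K27M-APP and at 0.0459, 0 and 0.0825 CPM in EV-PDGFRA (log2 fold change 7.65, SE 1.16, adjusted p = 0.00576). Its fold rests on 6 counts over the 3 EV-PDGFRA libraries, and without EV-PDGFRA 3 the log2 fold change was 8.54. In K27M-AP it ranged from 2.85 to 12.2 CPM (median 4.94), and in WT-AP from 0 to 0.196 CPM (median 0.0578). Plag1 was thus near silence in every library without the mutant histone. Bcl11a, a transcriptional repressor of neurons and blood cells, stood at 8.80 and 6.28 CPM against 0.229, 0.397 and 0.206 CPM (log2 fold change 4.75, SE 0.42, adjusted p = 0.000301). Its range was 6.67 to 12.3 CPM in K27M-AP (median 9.71) and 1.23 to 2.34 CPM in WT-AP (median 1.77).

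AW551984, Tcf24 and Gm10567 complete the 6. AW551984 stood at 2.28 and 3.19 CPM against 0.0459, 0.0794 and 0.0412 CPM (log2 fold change 5.55, adjusted p = 0.000838), a rise from 8 counts in all over EV-PDGFRA. Tcf24, a basic helix-loop-helix gene, stood at 4.66 and 5.42 CPM against 1.19, 0.833 and 0.454 CPM (log2 fold change 2.61, adjusted p = 0.00993). Gm10567, a predicted gene, stood at 3.47 and 4.18 CPM against 0.871, 0.675 and 0.454 CPM (log2 fold change 2.52, adjusted p = 0.0054). In K27M-AP these 3 genes had medians of 1.51, 4.45 and 3.39 CPM (ranges 1.28 to 3.63, 2.74 to 5.19 and 2.11 to 4.10), and in WT-AP 0.191, 0.711 and 0.473 CPM (ranges 0.118 to 0.236, 0.472 to 1.04 and 0.354 to 0.667). No range of K27M-AP overlapped that of WT-AP. All 6 calls stood without any EV-PDGFRA library. Tcf24 lost its call without K27M-APP 1 (adjusted p = 0.0745), and Tcf24 and Gm10567 lost theirs without K27M-APP 2 (0.0997 and 0.0725).

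Plag1 has a neighbour on chromosome 4 that was named after its values were seen. Chchd7, which encodes a mitochondrial intermembrane protein, starts 465 bases from Plag1 on the opposite strand. It stood at 17.7 and 16.1 CPM in K27M-APP and at 1.42, 2.24 and 1.90 CPM in EV-PDGFRA (log2 fold change 3.18, adjusted p = 0.00134). The call stood whichever of the 5 libraries was left out (adjusted p 0.00521 to 0.0251).

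Of 13 oncofetal growth genes 12 were tested, and 4 of them rose, Plag1 and 3 Igf2bp genes (0.906% of all genes rose), while 8 were not called, with a median log2 fold change of 1.12 over the 12. The 3 Igf2bp genes encode RNA-binding proteins that stabilize fetal messages. Igf2bp1 stood at 29.7 and 37.1 CPM in K27M-APP and at 0.0459, 0 and 0.0412 CPM in EV-PDGFRA (log2 fold change 10.09, SE 1.64, adjusted p = 0.00905). Igf2bp2 stood at 71.7 and 71.7 CPM against 11.8, 16 and 12.6 CPM (log2 fold change 2.41, adjusted p = 0.0312). Igf2bp3 stood at 207 and 212 CPM against 47.3, 42.3 and 21.6 CPM (log2 fold change 2.50, adjusted p = 0.0239). Only Igf2bp1 was near silence in EV-PDGFRA. In the cells without Pdgfra, Igf2bp1 ranged from 2.71 to 16.3 CPM in K27M-AP (median 6.59) and from 0 to 0.931 CPM in WT-AP (median 0.0382), and it was at 0 and 0.0376 CPM in EV ctl. Lin28b, Hmga1, Hmga2, Myc and Mycn were not called. Plag1 kept its call whichever library was left out. Igf2bp1 kept it without EV-PDGFRA 2 or 3 and lost it without EV-PDGFRA 1 or either K27M-APP library, and Igf2bp2 and Igf2bp3 lost theirs in all 5 fits, with lost adjusted p of 0.0502 to 0.203.

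Imprinted genes are expressed from 1 parental allele. Of 29 tested 5 rose and none fell (0.906% and 1.03% of all genes), and the median log2 fold change was 0.73. Grb10, an adaptor that restrains insulin receptor signalling, stood at 287 and 273 CPM against 1.01, 6.59 and 0.371 CPM (log2 fold change 6.72, SE 1.26, adjusted p = 0.0215). EV-PDGFRA 2 was the highest of its group, and without it the log2 fold change was 8.67. Zdbf2, a paternally expressed gene active in the hypothalamus, stood at 25.3 and 38.5 CPM against 0, 0.0397 and 0.0825 CPM (log2 fold change 9.49, SE 1.45, adjusted p = 0.00612), and its call stood in all 5 fits (log2 fold change 10.40 without EV-PDGFRA 3). Grb10 ranged from 58.6 to 324 CPM in K27M-AP (median 117) and from 8.67 to 91 CPM in WT-AP (median 28.6), which overlapped. Zdbf2 ranged from 15.6 to 34.6 CPM in K27M-AP (median 17.8) and from 0.157 to 4.26 CPM in WT-AP (median 0.746), which did not.

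The other imprinted genes that rose lie in 2 clusters. Magel2 and Ndn, of the Prader-Willi region on chromosome 7, start 30441 bases apart. Magel2 had 194 counts over the K27M-APP libraries and 2 over the EV-PDGFRA libraries, both in EV-PDGFRA 1, a ratio of 127 per scaled library total with an exact 95% counting interval of 34.7 to 1060. Ndn rose from 35.4, 22.6 and 35 CPM to 97.5 and 66.1 CPM (2.64-fold, adjusted p = 0.015). Mkrn3 and Peg12, which complete the 4 tested genes of this stretch, were not called. On chromosome 6, in the stretch from Casd1 to Asb4 (832.2 kb, 8 genes tested), Casd1, Sgce and Asb4 rose. Of these, only Sgce is on the imprinted list and counted among its 5 rises. Both ends of the stretch are called genes, so the number of rises in it is partly fixed by how it was drawn. Casd1 was named after its values were seen. Asb4, a subunit of ubiquitin ligases, stood at 16.1 and 20.8 CPM against 0.413, 1.63 and 0.165 CPM (log2 fold change 4.64, adjusted p = 0.0235). Sgce and Casd1 rose by 0.73 and 0.74 on the log2 scale, with adjusted p of 0.0473 and 0.0499, and both lost the call whichever library was left out. Peg10, whose start lies 99 bases from that of Sgce, differed by 0.82 without a call (adjusted p = 0.643). Among the 5 imprinted calls, leaving out EV-PDGFRA 1, 2 or 3 kept 2, 3 and 3, and leaving out K27M-APP 1 or 2 kept 2 and 3. Magel2 and Zdbf2 were among them each time.

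Slc38a4, an amino acid transporter that is imprinted in some mouse tissues and was not on the list, was among the 15 largest rises. It stood at 52.8 and 55.4 CPM in K27M-APP and at 0, 0.437 and 0 CPM in EV-PDGFRA, so all of its EV-PDGFRA counts came from library 2 (log2 fold change 8.47, SE 1.59, adjusted p = 0.0215). In K27M-AP it ranged from 0.683 to 37.3 CPM (median 14.5) and in WT-AP from 0.747 to 4.61 CPM (median 1.52), which overlapped. Asb4 ranged from 3.78 to 11.1 CPM in K27M-AP (median 10.3) and from 1.57 to 2.41 CPM in WT-AP (median 1.77), which did not. Slc38a4 and Asb4 kept their calls only without EV-PDGFRA 2, where Slc38a4 had no count left in EV-PDGFRA and Asb4 had a log2 fold change of 5.99.

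**Figure D4:**
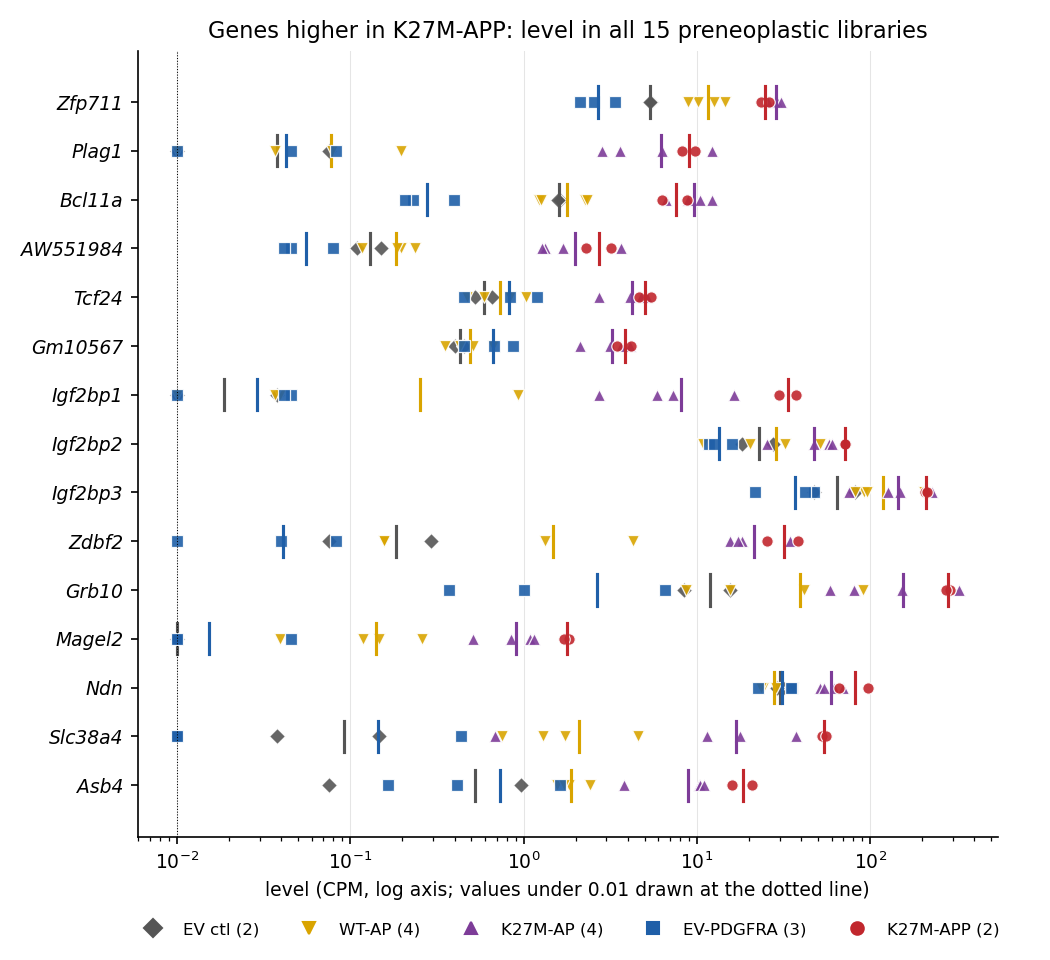
CPM (horizontal log axis) of 15 genes that rose, in each of the 15 preneoplastic libraries, 1 dot per library coloured by group (EV ctl, EV-PDGFRA, WT-AP, K27M-AP, K27M-APP). Values under 0.01 CPM are drawn at the dotted line. Plag1, Igf2bp1 and Zdbf2 lie near the left edge in both empty vector groups and to the right in both groups with the mutant histone.

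The remaining large rises were of receptors, guidance factors and enzymes. Grin2c, an NMDA receptor subunit of the cerebellum, stood at 76.5 and 51.4 CPM against 0.94, 0.933 and 0.124 CPM (log2 fold change 6.58, adjusted p = 0.0054). Klhl4, an X-linked kelch gene, stood at 35.3 and 28.5 CPM against 0.0917, 0.357 and 0.742 CPM (log2 fold change 6.31, adjusted p = 0.0218). Cbln1, a synapse organizer, had a log2 fold change of 4.24, and Slit2, an axon repellent, of 4.07 (adjusted p of 0.00158 and 0.015). For these 4 genes every EV-PDGFRA library was under 1 CPM and every K27M-APP library above 9 CPM. Prom1, which encodes the stem cell surface protein CD133, stood at 47.1 and 38.4 CPM against 2.39, 5.85 and 1.16 CPM (log2 fold change 3.77, adjusted p = 0.0241). St8sia4, a polysialyltransferase of the neural cell adhesion molecule, stood at 51.7 and 57.5 CPM against 2.84, 4.52 and 5.20 CPM (log2 fold change 3.70, adjusted p = 0.00366). Galnt18, which starts O-glycosylation, and Adamts3, a procollagen protease, had log2 fold changes of 3.59 and 3.75 (adjusted p of 0.00227 and 0.0037). Dmrta1 and Mab21l1, 2 regulators of development, had 3.90 and 3.55 (adjusted p of 0.015 and 0.0452). Of the 15 largest rises, 6, 12 and 8 kept the call without EV-PDGFRA 1, 2 and 3, and 6 did without either K27M-APP library. Adamts3, Cbln1, Galnt18, Grin2c, St8sia4 and Zdbf2 kept it in all 5 fits. Without EV-PDGFRA 3 the log2 fold changes of Klhl4 and Dmrta1 were 7.11 and 4.66, and without EV-PDGFRA 2 that of Prom1 was 4.59.

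Of the 15 largest falls, 7 belong to the p53 lists. They are Eda2r, Cdkn1a, Ak1, Fas, Trp53cor1, Ccng1 and Phlda3. The other 8 came from varied functions. Svop, a transporter-like protein of synaptic vesicles, stood at 0.238 and 0.279 CPM in K27M-APP and at 23.6, 17.7 and 16.6 CPM in EV-PDGFRA (log2 fold change -6.21, SE 1.41, adjusted p = 0.044). Klhdc7a, a kelch-domain gene, stood at 0.579 and 0.638 CPM against 17.8, 13.8 and 19.1 CPM (log2 fold change -4.79, adjusted p = 0.00864). Gria3, an AMPA receptor subunit, stood at 3.32 and 4.50 CPM against 59.1, 47.5 and 66.5 CPM (log2 fold change -3.88, adjusted p = 0.00242). Hepacam, a glial adhesion protein, stood at 7.80 and 9.56 CPM against 123, 80 and 164 CPM (log2 fold change -3.82, adjusted p = 0.0215). Its level in EV ctl was 123 and 57.5 CPM. Osmr, the oncostatin M receptor, En2, a homeobox gene, Dcxr, a xylulose reductase, and Plec, the cytoskeletal linker plectin, had log2 fold changes of -3.61, -3.52, -4.51 and -3.98 (adjusted p of 0.0267, 0.0036, 0.0305 and 0.0437). Leaving out EV-PDGFRA 1, 2 or 3 kept 9, 10 and 9 of the 15 calls. Leaving out K27M-APP 1 kept Ccng1 and Cdkn1a, and leaving out K27M-APP 2 kept these with En2 and Gria3.

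Polycomb targets were read next, since K27M acts on the enzyme that marks them. Of 64 developmental regulators prone to polycomb silencing, 42 did not pass the filter on low counts. Of the 22 tested none rose and 2 fell (0.906% and 1.03% of all genes), with a median log2 fold change of -1.90. Because only regulators with counts in some library could be tested, this median does not describe all 64. Irx3, an Iroquois homeobox gene, had 2 counts in all in K27M-APP and 390 in EV-PDGFRA, where its level was 2.71, 1.55 and 4 CPM. The ratio was 149 in favour of EV-PDGFRA, with an exact 95% counting interval of 41 to 1240. En2 stood at 0.987 and 1.67 CPM against 17.9, 15.1 and 12.7 CPM. Both calls stood without each EV-PDGFRA library, both were lost without K27M-APP 1, and without K27M-APP 2 En2 alone was called. Of 38 Hox genes with a row, 37 did not pass the filter, and no Hox gene was called. Among the enzymes, E130012A19Rik, the symbol in the files for Epop, an accessory subunit of polycomb repressive complex 2, rose by 2.08 on the log2 scale (15.3 and 13.8 CPM against 4.31, 3.21 and 2.76 CPM, adjusted p = 0.0437). Cbx6, a chromobox subunit of polycomb repressive complex 1, fell by 0.97 (adjusted p = 0.0435). The other 11 and 18 members of these lists were not called, and neither of the 2 calls stood when any library was left out.

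Cell cycle inhibitors moved in both directions. Cdkn1a fell as above, and Cdkn2a, which encodes p16 and p19Arf from 1 locus, rose from 36.3, 26.7 and 52 CPM to 105 and 109 CPM (log2 fold change 1.49, adjusted p = 0.0486). This call was lost whichever library was left out, with adjusted p of 0.0628 to 0.301. The summed counts of the gene do not tell its 2 products apart. Cdkn2b, next to it on chromosome 4, differed by 0.57 without a call (adjusted p = 0.716). The other 5 inhibitors on the list were not called.

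Genes of cell division themselves gave no call. All 23 mitosis genes had a positive log2 fold change, with a median of 0.70, but none passed the test. The summed level of the list was 5289 and 5496 CPM in K27M-APP and 3932, 4597 and 1575 CPM in EV-PDGFRA, where library 3 was the lowest of the 5. Top2a, the topoisomerase of mitotic chromosomes, stood at 1207 and 1143 CPM against 834, 885 and 336 CPM (adjusted p = 0.759). The sum over 20 S phase genes was 2948 and 3029 CPM against 3254, 3049 and 1963 CPM, so only library 3 lay apart. No S phase gene, none of 11 G1 cyclin, kinase and Rb genes and none of 19 MAPK response genes was called. Ccnd1, cyclin D1, stood at 2049 and 2259 CPM against 2604, 1847 and 2470 CPM. Dusp6, a feedback phosphatase of ERK, stood at 608 and 543 CPM against 488, 274 and 418 CPM (adjusted p = 0.847).

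The PDGF system was read because both groups received the receptor. None of its 6 genes was called. Pdgfa, the ligand of Pdgfra, stood at 5.29 and 5.80 CPM in K27M-APP and at 36.9, 27.3 and 91.5 CPM in EV-PDGFRA. The groups did not overlap, and the log2 fold change of -3.23 had an SE of 0.93 and an adjusted p of 0.0943. Pdgfb, Pdgfc and Pdgfd, the other ligands, had log2 fold changes of 1.46, 0.08 and 1.28, and Pdgfrb, the other receptor, of 1.05. Their SEs ranged from 0.43 to 1.67. Without EV-PDGFRA 3 the log2 fold change of Pdgfa was -2.53, and without EV-PDGFRA 2 that of Pdgfb was 2.58.

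Ligands of the Notch receptors, which act between neighbouring cells, included 2 rises. Of 16 Notch pathway genes 2 rose (0.906% of all genes did): Jag2 (4.05 and 2.73 CPM against 0.367, 0.476 and 0.454 CPM, log2 fold change 2.96, adjusted p = 0.0221) and Dll4 (2.18 and 2.89 CPM against 0.275, 0.238 and 0.371 CPM, log2 fold change 3.09, adjusted p = 0.0245). The median of the list was 0.03, and both calls were lost whichever library was left out. Among 23 hypoxia and glycolysis genes only Hk1, a hexokinase, was called (log2 fold change -1.38, adjusted p = 0.0237), and it too lost the call in all 5 fits. No member of the interferon (22 tested), MHC (15), extracellular matrix (23) or mitochondrial (13) lists was called.

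**Figure D5:**
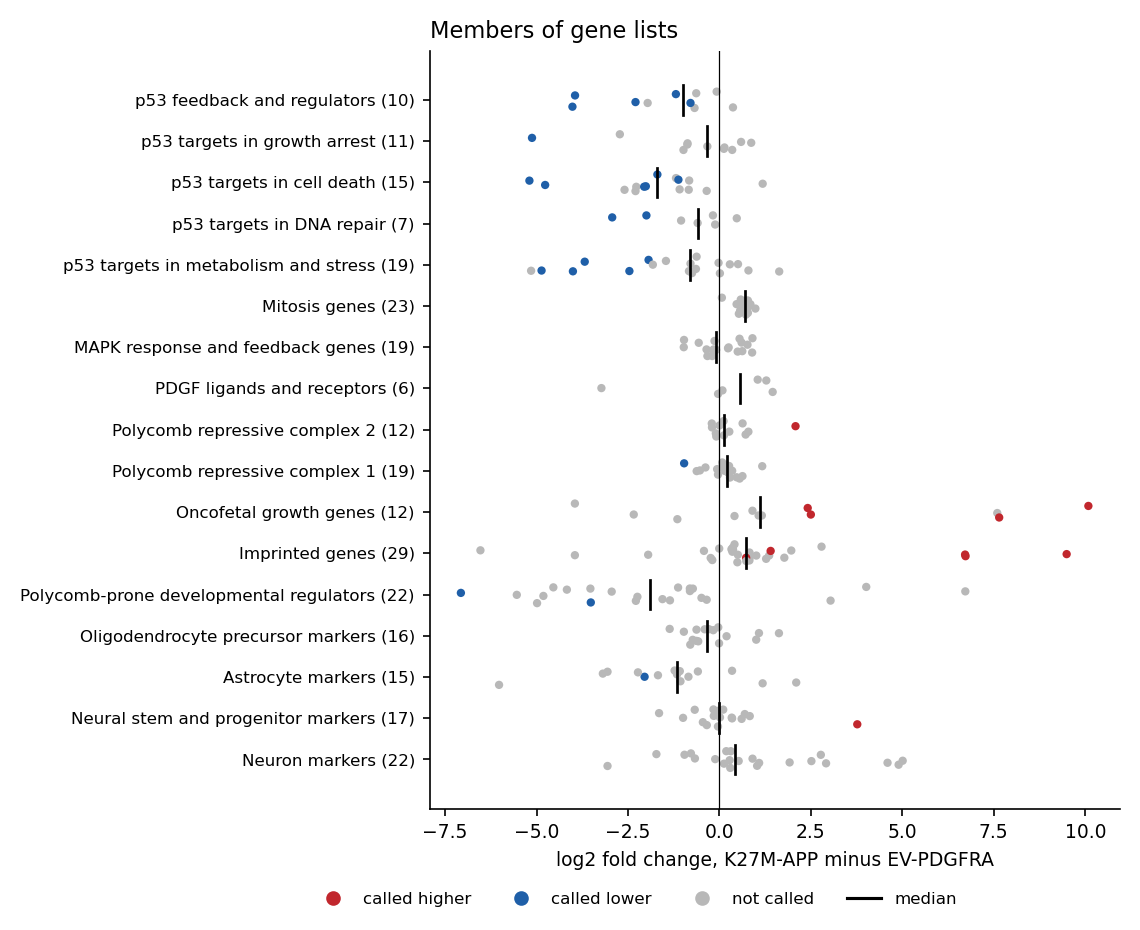
Log2 fold change (K27M-APP minus EV-PDGFRA, horizontal axis) of the tested members of 17 gene lists, 1 dot per gene, with called genes coloured and a bar at the median of each list. The p53 feedback (-0.99) and cell death (-1.70) medians lie left of 0, and the mitosis (0.70) and imprinted (0.73) medians lie right of it.

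Markers were used to check the labelled cell type. Progenitor markers were abundant in both groups, with summed levels of 9134 and 10720 CPM in K27M-APP and 9929 to 10980 CPM in EV-PDGFRA, and of 17 tested Prom1 alone was called. Oligodendrocyte precursor markers were not called (16 tested, median log2 fold change -0.35). Olig1 stood at 756 and 835 CPM against 1220, 1020 and 1325 CPM (adjusted p = 0.204). Astrocyte markers were lower in level: their sum was 1334 and 1337 CPM against 2479, 2402 and 2437 CPM, and 12 of 15 had a negative log2 fold change, with a median of -1.16. Slc4a4, a bicarbonate cotransporter of astrocytes, was the 1 called (90.6 and 144 CPM against 522, 523 and 406 CPM, log2 fold change -2.05, adjusted p = 0.0394), and it lost the call whichever library was left out. Without Pdgfra its log2 fold change was 0.28. In bulk samples fewer cells of a type and less RNA per cell cannot be told apart.

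Neuron markers summed to 1062 and 1166 CPM in K27M-APP and to 851, 807 and 945 CPM in EV-PDGFRA, of which Map2, a cytoskeletal gene, made up most. Markers of cell types outside the neural lineage were low. Of 13 microglia markers 9 did not pass the filter, and their summed level was 11.4 and 12.9 CPM against 10.3 to 14.5 CPM. Endothelial and pericyte markers summed to 6.83 and 9.25 CPM against 2.93 to 5.39 CPM, fibroblast markers to 49.3 and 51.7 CPM against 81.7 to 142 CPM, and red blood cell genes to under 1 CPM in each of the 5 libraries. Mature oligodendrocyte markers summed to 128 and 116 CPM against 101, 107 and 215 CPM, with EV-PDGFRA 3 the highest. Cnp made up 84.9 and 67.9 CPM of the K27M-APP sums. Of the 15 tested, 11 had a negative log2 fold change and 4 a positive one, with a median of -1.14. Without Pdgfra the median of this list was 2.465. No gene of these lists and no neuron marker (22 tested) was called. The part of these markers in the results above was not tested.

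The sex-linked genes differed between the groups. Xist, the RNA of the inactive X chromosome, stood at 67.5 and 144 CPM in K27M-APP and at 0.138, 0.0397 and 0.0412 CPM in EV-PDGFRA. Ddx3y, on the Y chromosome, stood at 40.6 and 25.2 CPM in K27M-APP and at 84.8, 66.9 and 87 CPM in EV-PDGFRA. Both K27M-APP libraries therefore held RNA of the inactive X and of the Y chromosome, and the EV-PDGFRA libraries held Y chromosome RNA with Xist near 0. On the X chromosome 21 of 886 tested genes were higher (2.37%, compared with 0.906% of all) and 8 were lower (0.903%). Zfp711 and Klhl4 among the rises, and Atrx, Eda2r and Gria3 among the falls, are X-linked. Without delivered Pdgfra their log2 fold changes were 2.40 for Zfp711, 5.55 for Klhl4, -0.71 for Atrx, -5.40 for Eda2r and -2.51 for Gria3. Klhl4 and Atrx were not called there. In those libraries EV ctl held Xist at 276 and 43.9 CPM and K27M-AP at 74.9 to 181 CPM. Ddx3y was at 0 and 86 CPM in EV ctl. Between K27M-APP and EV-PDGFRA the difference in Xist follows the same split of libraries as the bundle, so their parts cannot be told apart.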

How the data were processed

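RNA sequencing was read from 5 libraries compared and 10 further preneoplastic libraries. The authors deposited raw counts per gene, with no normalization, in 2 tables of 39017 genes. Per the submitters' processing notes the build was mm10, and the tools listed were featureCounts 1.4.4, STAR 2.3.0e, SAMtools 0.1.19, Picard, GATK and Trimmomatic 0.32. The strand setting, the annotation and the handling of reads with several matches are not given in the sources used here, so reads of overlapping or antisense genes and near-identical copies may be shared. Libraries in both tables had identical counts, and 8 other columns of the earlier table were not used.

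Counts were tested in R 4.3.3 with edgeR 4.0.16: TMM scaling, filterByExpr (minimum count 10, minimum total 15), and a 2-sided quasi-likelihood F-test on group means with Benjamini-Hochberg adjustment over 20197 genes at a threshold of 0.05. The fit had 10 residual degrees of freedom and a coefficient of variation between replicates of 0.399. The depth of 43989080 to 58390900 counts per library, and the number of libraries, limit the precision. Intervals cover counting error only. Alternatives used DESeq2 1.42.0 and limma 3.58.1 (voom), other scaling, no filter, other sets of libraries, a term for the deposited table, a replicate block and leaving out each library. On data simulated for K27M-APP against EV-PDGFRA (20197 genes), the test called 47% of 100 genes changed by 2 and 66% of 100 changed by 3 on the log2 scale, with 7 false calls.

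The comparison, its gene lists and the tests were chosen with earlier results of these data known. Named genes are Pdgfra, Trp53, Atrx, H3f3a and H3f3b, the 15 largest rises and falls among called genes without overlap between libraries (at least 10 CPM on average in either group, predicted and sex-linked genes left out), and up to 4 members a list and direction by smallest adjusted p, or the most abundant member. All members of the p53 feedback, growth arrest and cell death, PDGF and K27M-AP against WT-AP lists may be named. Other genes named are said to be chosen after their values were seen, or stand beside a named gene at its locus. Rows were kept by Ensembl identifier (162 symbols occur more than once), and coordinates are from GENCODE M21 on GRCm38, matched for 37607 genes.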

Additional observations from a re-analysis of the deposited data

Results flagged for a closer look

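Among 13 genes whose levels are given above for the 4 K27M-AP and 4 WT-AP libraries (26 groups checked), 3 groups held a library far from the other 3, by the gap to its nearest neighbour as a share of the group's range, above Dixon's 95% critical value. Chance gives about 1 in 20 groups. Igf2bp1 in WT-AP had a gap of 0.958: its lowest, median and highest levels were 0, 0.0382 and 0.931 CPM, and the high library was WT-AP 2. Zdbf2 in K27M-AP had a gap of 0.857, with 15.6, 17.8 and 34.6 CPM, the high library being K27M-AP 2. Asb4 in K27M-AP had a gap of 0.893, with 3.78, 10.3 and 11.1 CPM and 1 library on the low side. None of these libraries enters the difference between K27M-APP and EV-PDGFRA.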

How the results depend on the processing

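The number of genes called between K27M-APP and EV-PDGFRA (392) was 382 with DESeq2 size factors, 311 with no filter and 413 with a term for the deposited table, and it moved further with limma voom (5142), DESeq2 (1371), all 23 libraries in the fit (171) and the 2 groups alone (2264). Leaving out 1 library gave 44 to 162. With the replicate number as a block 601 genes were called, 340 of the 392 among them, and Plec was lost (adjusted p = 0.0757). Deviations of same-numbered libraries from their group means correlated at 0.009 and 0.004. With 2 K27M-APP libraries these deviations mirror each other, so the check could hardly show pairing and does not settle it. The 159 genes called between K27M-AP and EV ctl became 46 with limma voom, 1032 with DESeq2, 88 with the replicate block and 1 with the 2 groups alone, and 36 to 657 with 1 library left out. The difference between both contrasts, 0 genes, gave 6 with DESeq2, 1 with only the compared groups, 0 with the replicate block and 0 to 4 with 1 library left out. Chosen after seeing the data, the earlier table's libraries gave 653 genes in the first comparison and the later table's libraries 0 in the second. The causes of these moves were not tested. The fits that leave some libraries out also hold fewer libraries. Of 63 named genes called, 13 kept the call under every alternative run and none reversed. DESeq2 size factors moved the median log2 fold change of all genes from -0.01 to 0.003. For genes with few counts in 1 group the depth limits the fold.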

Other observations

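The genes of the next 2 paragraphs were picked after their values were seen, and each was called in K27M-APP against EV-PDGFRA. Neurotransmitter receptor genes moved both ways, Grin2c up and Gria3 down as given above. Grik2, a kainate receptor subunit, stood at 64.4 and 60.7 CPM against 9.33, 7.90 and 8.43 CPM (log2 fold change 2.87, SE 0.36, adjusted p = 0.00239 by edgeR). Gabra3, an X-linked GABA-A receptor subunit, stood at 3.37 and 3.25 CPM against 0.275, 0.159 and 0.0825 CPM (log2 fold change 4.26, SE 0.64, adjusted p = 0.00571). Both kept the call whichever of the 5 libraries was left out, and without Pdgfra both were called in the same direction (log2 fold changes of 2.52 and 4.15).

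Gdf15, a stress-induced ligand, was not on the p53 lists, which do not hold every gene that p53 induces. Gdf15 stood at 0.681 and 0.717 CPM against 9.93, 12 and 5.18 CPM (log2 fold change -3.69, SE 0.49, adjusted p = 0.0032). It was called without each EV-PDGFRA library and lost without 1 K27M-APP library or the other (highest adjusted p = 0.0745), and without Pdgfra its log2 fold change was -4.47 (adjusted p = 0.000224). Trim9, a neuronal ubiquitin ligase, stood at 28.6 and 34.8 CPM against 326, 235 and 471 CPM (log2 fold change -3.44, adjusted p = 0.0166) and kept the call without EV-PDGFRA 2 or 3 only. Its log2 fold change without Pdgfra was -0.71 (adjusted p = 0.535). Foxj1, the regulator of motile cilia, and Dnah2, an axonemal dynein, had log2 fold changes of -2.73 and -2.99 (adjusted p of 0.0416 and 0.0303), and both lost the call in all 5 fits.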
